A study of Mus musculus with 8 samples.

Results

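Transcripts of fetal growth genes and of the growth hormone and insulin-like growth factor (IGF) axis were compared between newborn livers with and without Mfp2. The 10 listed genes were Afp, H19, Igf2, Dlk1 and Gpc3 for fetal growth, and Igf1, Igfals, Ghr, Igfbp2 and Igfbp3 for the axis. Every probe set that the array annotation pairs with exactly 1 of these symbols was taken, whatever its values. This gave 21 probe sets of 9 genes, of 45037 probe sets and 18193 genes in all, with 10 probe sets for 4 fetal genes and 11 for the 5 axis genes. H19 has no such probe set, because its single entry also carries the symbol of the microRNA gene Mir675, which lies inside H19. The study measured total RNA from whole livers of mice aged 2 days, 4 with the genotype Mfp2 -/- and 4 wild type, on 1 Affymetrix array per mouse. Mfp2 is the multifunctional protein 2 of peroxisomes, encoded by Hsd17b4, and the labels name no allele beyond the knockout. Strain, sex and litter are not named in the labels.

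Before birth the liver makes alpha-fetoprotein, the fetal counterpart of albumin, and IGF2, the growth factor of the embryo. Igf2, H19 and Dlk1 are imprinted genes that are strongly expressed in the embryo and are silenced in most tissues after birth. After birth, growth hormone binds its receptor on hepatocytes and activates the kinase JAK2 and the factor STAT5, which drives transcription of Igf1 and Igfals. IGF1 then circulates in a complex with IGFBP3 and the acid-labile subunit made from Igfals, and IGFBP2 is a binding protein that is high in fetal liver and is lowered by growth hormone. In the mouse this axis matures over the first weeks of life, so newborn livers still carry much of the fetal programme.

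The stretches of sequence just upstream of a member from each side, and of the binding protein of the fetal liver, show the letters that such regulators are known to read. They are the 250 bases before an annotated start in RefSeq, build GRCm38.p6, all on the plus strand and written in the direction of transcription. The Afp window is chr5:90490464-90490713, the Igfals window is chr17:24877981-24878230, and the Igfbp2 window is chr1:72824230-72824479. Capitals mark TTCNNNGAA, the letters of a STAT5 site, and GTTAAT, a part of the site of the hepatocyte factor HNF1. They also mark TATAAA, the letters of a TATA box, and GGGCGG, those of a GC box. Each motif was searched on both strands, at any position in the window.
Afp: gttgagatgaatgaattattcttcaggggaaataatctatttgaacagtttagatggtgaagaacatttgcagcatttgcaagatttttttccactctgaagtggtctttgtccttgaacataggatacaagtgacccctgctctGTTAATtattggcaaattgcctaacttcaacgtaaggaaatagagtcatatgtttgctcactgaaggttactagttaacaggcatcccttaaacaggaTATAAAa
Igfals: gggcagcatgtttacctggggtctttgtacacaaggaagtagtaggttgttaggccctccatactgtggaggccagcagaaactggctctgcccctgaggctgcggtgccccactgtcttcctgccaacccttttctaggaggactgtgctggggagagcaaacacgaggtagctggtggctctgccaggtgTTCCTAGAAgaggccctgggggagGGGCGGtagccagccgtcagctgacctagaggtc
Igfbp2: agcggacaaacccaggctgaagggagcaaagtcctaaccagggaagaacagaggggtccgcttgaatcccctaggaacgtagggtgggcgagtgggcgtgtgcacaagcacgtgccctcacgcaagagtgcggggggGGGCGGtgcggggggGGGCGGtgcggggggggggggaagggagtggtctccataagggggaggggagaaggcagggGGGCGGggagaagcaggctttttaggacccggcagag
The 9 genes have 16 annotated starts in that table. The STAT5 letters were found in 2 of these 16 windows, both of Igfals, against 7.02% of all 32851 windows. In the printed Igfals window they read TTCCTAGAA and begin 58 bases before the start. The HNF1 letters were found in 1 member window, that of Afp, against 6.43% of all windows, and the TATA letters in 2, of Afp and Ghr, against 12.4%. The TATA letters begin 7 bases before the annotated start in Afp. In Ghr they read TTTATA, on the reverse strand, and begin 188 bases before it. GC boxes were found in 7 member windows against 32.7% of all. No motif overlapped another in the printed windows. Only these exact letters were searched, so a site spelled otherwise, of HNF1 among others, stays in lower case. A match describes letters only, and these arrays measured no binding.

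The transcript of the deleted gene checked the labels. Hsd17b4 lay between 3.25 and 4.29 on the log2 scale in knockout livers and between 8.15 and 8.97 in wild type livers. In its other probe set knockout 1 read 3.06 and the other knockout livers 1.73 to 1.88, beside 7.80 to 8.78 in wild type livers. Array medians lay between 3.68 and 3.73. Alb, the gene of albumin and the defining product of hepatocytes, lay between 13.44 and 13.55 in all livers. Xist was high in knockout 1, knockout 2 and wild type 3, and Y-linked transcripts were high in the other 5 livers, so the sexes were unevenly spread over the genotypes. Of 12 measured markers of red cell precursors 3 fell in the knockout at the threshold used below, a count of 7 without knockout 2, 2 without knockout 1, 3 without wild type 2 and 0 without any other liver. Over all genes 1.15% passed, and 11 of the 12 markers had an unadjusted p under 0.05 in limma. The count was 0 with a replicate block and in replicates 1 and 2 alone, 1 after quantile normalization once more, 5 without dim probe sets, 7 in replicates 3 and 4 alone, with a block for these sets or with the Y-linked mean, and 11 with array weights. Their mean lay between 7.69 and 8.30 in knockout and between 8.59 and 8.79 in wild type livers. In bulk tissue fewer cells of a type and less RNA per cell cannot be told apart.

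None of the 21 member probe sets passed the threshold, an adjusted p of 0.05 in limma over all probe sets. The adjusted p-values lay between 0.145 and 0.987. Of all probe sets 0.762% passed, so a count of 0 among 21 is near the background. At an unadjusted p under 0.05 there were 5 member probe sets, of Afp, Igf1 (2), Igfals and Igfbp2, against 11.7% of all probe sets. The knockout values lay wholly below the wild type values in 3 member probe sets, 2 of Afp and the 1 of Igfals, against 3.81% of all probe sets. They lay wholly above in 0, a direction whose share over all probe sets was not counted, so the 2 directions cannot be weighed against each other. These 3 were the probe sets at 0.0286, the smallest two-sided p that an exact permutation test of 4 against 4 livers can give. A p that misses the threshold does not show that levels were equal. The 95% interval of the difference stayed within 1 log2 unit, a 2-fold change, in 14 of the 21 probe sets and in 95.3% of all probe sets. The other 7 were of Igf1, Ghr and Dlk1.

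**Figure D1:**
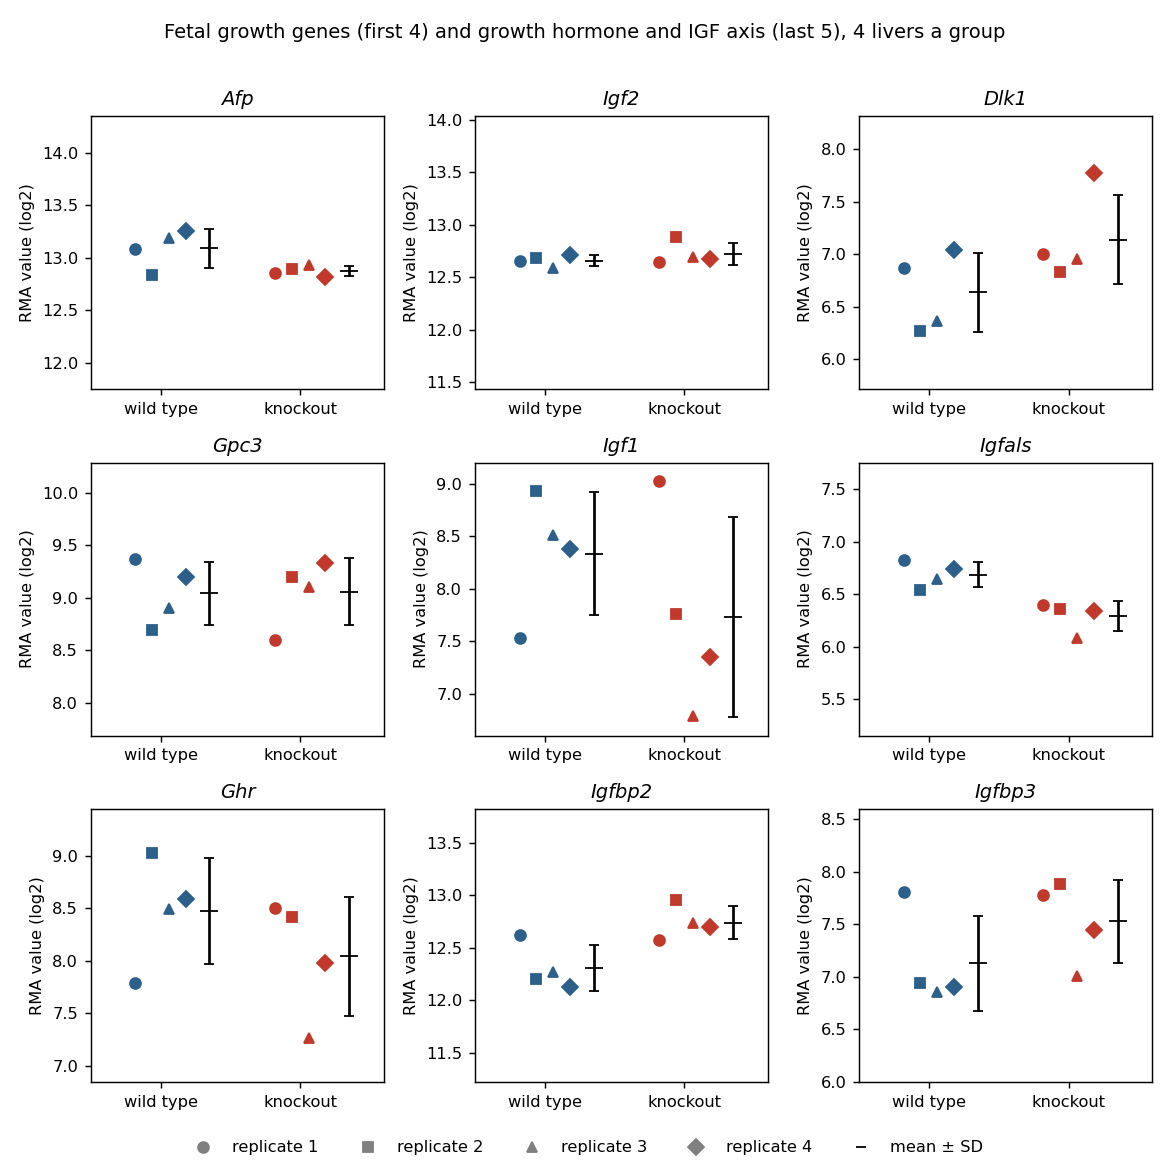
RMA values (log2, vertical axes of equal span) of the 9 measured genes in 4 wild type (blue) and 4 knockout (red) livers, with the marker shape giving the replicate number and the bar the mean ± SD, for the probe set with the highest mean of each gene. Igfals is the single panel in which the groups do not overlap, with all knockout livers at or below 6.40 and all wild type livers at or above 6.54.

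Among the fetal genes, each taken by its brightest probe set, Afp differed by little, and Igf2 and Gpc3 had means that nearly coincided. The second Igf2 probe set, which is dimmer, differed by more, at 0.41. The brightest probe sets of Afp and Igf2 read near the top of the measured values. Whether differences are compressed there was not tested. Afp encodes alpha-fetoprotein, the main plasma protein of the fetus. Its brightest probe set read 12.85, 12.89, 12.94 and 12.82 in knockout livers 1 to 4 and 13.09, 12.83, 13.19 and 13.26 in wild type livers 1 to 4. Wild type 1, 3 and 4 lay above all knockout livers, and wild type 2 lay among them. The difference was -0.22 ± 0.11 (SE), a 1.16-fold lower mean, with an adjusted p of 0.486 in limma and an exact permutation p of 0.114.

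Afp has the most probe sets of the list, and 4 of its 5 had lower means in the knockout. A second bright one had a knockout mean of 12.19 ± 0.06 (SD, n = 4) and a wild type mean of 12.45 ± 0.16, without overlap. Its difference was -0.26 ± 0.10 (SE), with an interval from -0.48 to -0.034 and an adjusted p of 0.341 in limma. A dim one also did not overlap, at 4.25 to 4.36 in knockout and 4.39 to 4.51 in wild type livers. The last lay below the median of each array in all but 1 liver, at 2.88 to 3.77, and had the opposite sign, with a difference of 0.15 ± 0.16. Spread among knockout livers was small in the bright probe sets, with an SD of 0.05 in the brightest against 0.19 in wild type livers.

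Igf2 encodes the growth factor IGF2. Its bright probe set read 12.65, 12.88, 12.69 and 12.68 in knockout livers 1 to 4 and 12.66, 12.68, 12.59 and 12.71 in wild type livers 1 to 4. The groups overlapped, and knockout 2 was the highest liver. The difference was 0.06 ± 0.09 (SE), with an interval from -0.13 to 0.26. The second probe set of Igf2 had a knockout mean of 7.55 ± 0.41 (SD, n = 4) and a wild type mean of 7.14 ± 0.15. Its difference of 0.41 ± 0.19 had an interval from -0.0024 to 0.83 and an adjusted p of 0.431 in limma. The probe sets of Igf2 thus agreed in sign and not in size.

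The probe set annotated to both H19 and Mir675 was kept out of all counts, since it cannot be assigned to 1 gene. It read 12.85 to 12.93 in the knockout and 12.73 to 12.85 in the wild type, a difference of 0.10 ± 0.08 (SE), with an adjusted p of 0.705 in limma. The groups met at a single pair of livers, knockout 2 and wild type 2, which both read 12.85.

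Dlk1 encodes a membrane protein of hepatoblasts related to the ligands of Notch. It had the largest difference of the fetal genes. It read 7.00, 6.84, 6.96 and 7.77 in knockout livers 1 to 4 and 6.87, 6.27, 6.37 and 7.05 in wild type livers 1 to 4. Knockout 4 stood well above the rest, and wild type 1 and 4 lay within the range of the knockout livers. The difference was 0.50 ± 0.23 (SE), with an interval from -0.020 to 1.03 and an adjusted p of 0.452 in limma. Without knockout 4 it was 0.29. A second Dlk1 probe set, at 2.61 to 3.13 in all livers, lay below the median of each array.

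Gpc3 encodes glypican 3, a heparan sulphate proteoglycan of the cell surface that restrains growth in the embryo. It read 8.60, 9.20, 9.11 and 9.33 in knockout livers 1 to 4 and 9.37, 8.70, 8.90 and 9.19 in wild type livers 1 to 4. The groups covered nearly the same range, with knockout 1 the lowest and wild type 1 the highest liver. The difference was 0.017 ± 0.19 (SE), with an interval from -0.40 to 0.43. Its sign changed with single livers left out, from -0.10 to 0.17.

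In the postnatal axis the receptor, the growth factor and the acid-labile subunit had lower means in the knockout, and both binding proteins had higher means. Ghr encodes the growth hormone receptor. Its brightest probe set read 8.50, 8.41, 7.27 and 7.98 in knockout livers 1 to 4 and 7.79, 9.02, 8.50 and 8.58 in wild type livers 1 to 4. Knockout 3 was the lowest liver and wild type 1 the next, so that the groups overlapped. The difference was -0.43 ± 0.31 (SE), with an adjusted p of 0.668 in limma.

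The other Ghr probe sets gave differences of -0.49 ± 0.24 (SE) and -0.36 ± 0.20, with adjusted p-values of 0.478 and 0.565 in limma. In the first of them the wild type livers were close together, at 8.11 to 8.30, while knockout 1 and 2 lay at 8.19 and knockout 3 and 4 at 7.03 and 7.53. The lower mean of that probe set came from knockout 3 and knockout 4. Left out singly, knockout 3 took the difference of the brightest probe set to -0.17, wild type 2 to -0.25 and wild type 1 to -0.66.

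Igf1 encodes IGF1, the main product of growth hormone action on the liver, and has 4 probe sets. The brightest read 9.03, 7.76, 6.79 and 7.35 in knockout livers 1 to 4 and 7.53, 8.93, 8.51 and 8.38 in wild type livers 1 to 4. Knockout 1 was the highest of all 8 livers, and wild type 1 lay among the other knockout livers. Igf1 differed by -0.61 ± 0.44 (SE), a 1.52-fold lower mean, with an interval from -1.59 to 0.38 and an adjusted p of 0.680 in limma. The SD was 0.95 among knockout and 0.59 among wild type livers, near or above the size of the difference.

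The 4 Igf1 probe sets formed pairs. One further probe set followed the brightest, with a difference of -0.63 ± 0.44 (SE). The other pair placed wild type 1 with its group more closely and had smaller spread. The dimmest probe set read 6.82, 5.92, 5.41 and 5.76 in knockout livers 1 to 4 and 6.44, 6.93, 6.93 and 7.26 in wild type livers 1 to 4. Knockout 2, 3 and 4 lay below all wild type livers and knockout 1 lay among them. Its difference was -0.92 ± 0.28 (SE), a 1.89-fold lower mean, with an interval from -1.54 to -0.29 and an adjusted p of 0.207 in limma. The last probe set differed by -0.78 ± 0.27, with wild type livers at 7.62 to 7.98, an interval from -1.38 to -0.17 and an adjusted p of 0.278 in limma. The position of the probes in the Igf1 transcripts is not given in the table or the labels.

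**Figure D2:**
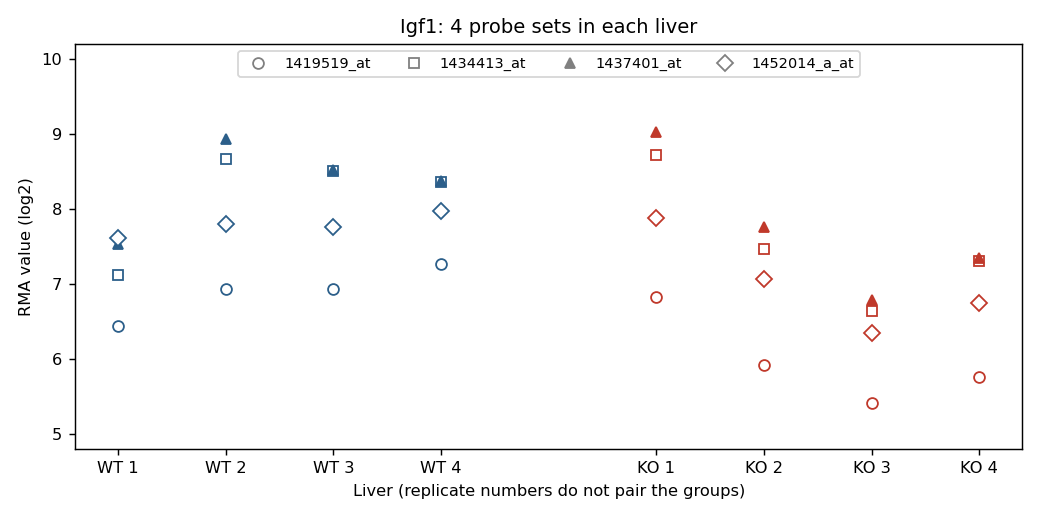
RMA values (log2) of the 4 Igf1 probe sets in each wild type (blue) and knockout (red) liver, with the filled triangle the probe set of the highest mean. Knockout 1 lies with the wild type livers in all 4 probe sets, at 9.03 in the brightest, while wild type 1 is low in the brightest, at 7.53, and lies with its group in the diamonds, at 7.62.

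Single livers weighed on Igf1. Without knockout 1, the brightest probe set differed by -1.04, and the probe set at 7.62 to 7.98 in wild type livers passed the threshold, with a difference of -1.07 and an adjusted p of 0.0481 in limma. That fit called 0.311% of all probe sets as lower. Without knockout 3 the brightest differed by -0.29.

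Replicates 1 and 2 of both genotypes differed from replicates 3 and 4 at 170 of 45037 probe sets in limma, with 0 of the 21 among them. No label gives these sets a meaning, and the differences within each set are given as a description only. In replicates 3 and 4 alone, 2 livers against 2, 3 of the 4 Igf1 probe sets passed the threshold. Their differences were -1.51, -1.38 and -1.32, with adjusted p-values of 0.0357, 0.0479 and 0.0394 in limma, where 0.797% of all probe sets were called as lower. In replicates 1 and 2 alone the same 3 Igf1 probe sets differed by -0.32, 0.17 and -0.23, and the fourth by 0.20. In that set 0 of 21 member probe sets passed the threshold in limma, where 0.00888% of all probe sets were called. At an unadjusted p under 0.05 in limma there were 0 member probe sets and 1813 of all 45037, so this 0 is near the background. In replicates 3 and 4 alone 12 member probe sets and 6677 of all had such a p. The brightest Ghr probe set differed by -0.92 in replicates 3 and 4 and by 0.053 in replicates 1 and 2, where the other 2 differed by -0.05 and -0.03, and Igfals by -0.48 and -0.31. Whether the effect of genotype differs between these sets was not tested. In replicates 1 and 2 both knockout livers and neither wild type liver were high in Xist, so that sex and genotype cannot be told apart there. In replicates 3 and 4 wild type 3 alone was high in Xist, so the sexes were uneven between the genotypes in that set as well. In a fit of all 8 livers that included the Y-linked mean, the Igf1 difference was -0.75 and that of Igfals -0.41.

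Igfals encodes the acid-labile subunit, which holds IGF1 in its circulating complex. It had the lowest p of the list and small spread in both groups. It read 6.40, 6.35, 6.08 and 6.34 in knockout livers 1 to 4 and 6.82, 6.54, 6.64 and 6.74 in wild type livers 1 to 4. Each knockout liver lay below each wild type liver. Igfals differed by -0.39 ± 0.11 (SE), a 1.31-fold lower mean, with an interval from -0.63 to -0.16. The adjusted p was 0.145 in limma, and the exact permutation p was 0.0286. With single livers left out the difference lay between -0.44 and -0.32, with adjusted p-values between 0.113 and 0.339 in limma.

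The erythroid marker mean separated the genotypes as Igfals did. With that mean as a covariate, which is nearly confounded with genotype, Igfals differed by -0.20 with an adjusted p of 0.987 in limma, and that fit called 0 probe sets in all (2080 at an unadjusted p under 0.05). Among 11813 genes above the median of all probe sets, those whose values followed Igfals most closely over the 8 livers were Snrnp25, Nudt5 and Cldn13, with Pearson r of 0.99, 0.99 and 0.98. Snrnp25 and Cldn13 fell in the knockout, by 0.73 and 0.99 on the log2 scale, with adjusted p-values of 0.0499 and 0.0383 in limma. Nudt5 differed by -0.58 and did not pass, with an adjusted p of 0.0754 in limma. Igfals was picked for its low p and separated the genotypes. Genes that follow it this closely therefore differ between the genotypes too and add no separate evidence. The same search from Dlk1, the fetal gene with the lowest p when each gene is taken by its brightest probe set, gave Alpk3, Neu1 and Parp12, with r of 0.98, 0.98 and 0.97. With so many genes and 8 livers, values this high describe these livers only.

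Igfbp3 encodes the binding protein that carries most IGF1 in blood, and in liver it is known mainly from cells other than hepatocytes. It read 7.78, 7.88, 7.00 and 7.44 in knockout livers 1 to 4 and 7.81, 6.94, 6.86 and 6.90 in wild type livers 1 to 4. Wild type 1 stood apart from its group and lay with knockout 1 and 2, and the groups overlapped. The difference was 0.40 ± 0.25 (SE), with an adjusted p of 0.605 in limma, and it was 0.63 without wild type 1. The second probe set gave 0.39 ± 0.21, with the same liver apart.

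Igfbp2 encodes the binding protein of the fetal liver. It read 12.57, 12.96, 12.74 and 12.69 in knockout livers 1 to 4 and 12.63, 12.20, 12.27 and 12.13 in wild type livers 1 to 4. The groups were apart except for wild type 1, which exceeded knockout 1. The difference was 0.43 ± 0.13 (SE), a 1.35-fold higher mean, with an interval from 0.14 to 0.72, an adjusted p of 0.202 in limma and an exact permutation p of 0.0571. With single livers left out it lay between 0.36 and 0.54, with adjusted p-values between 0.0873 and 0.442.

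**Figure D3:**
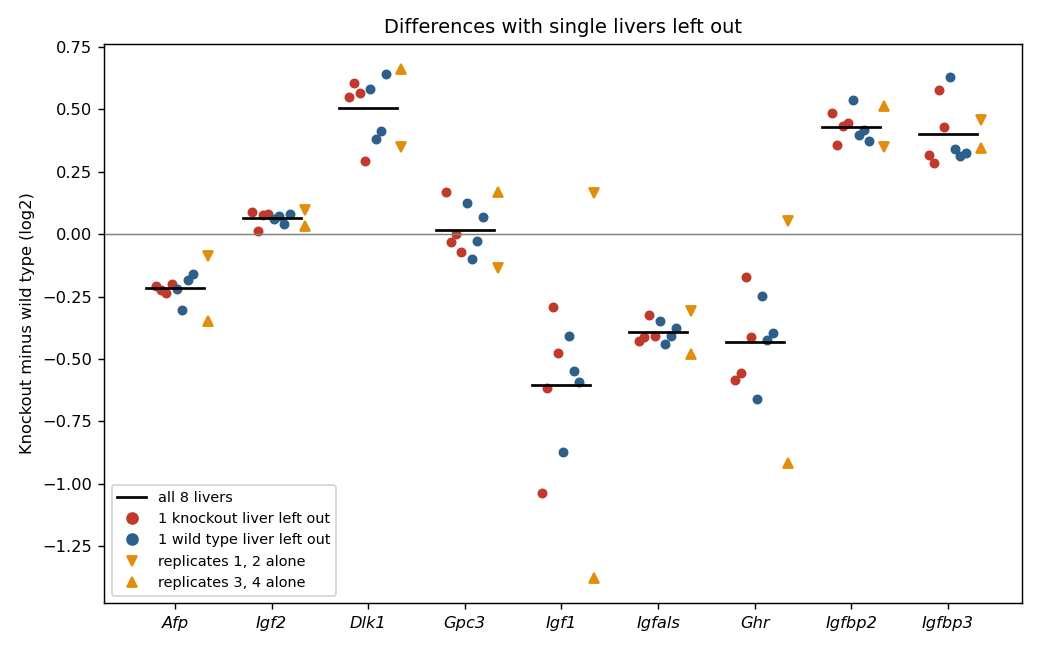
Difference of each gene, knockout minus wild type (log2), with all 8 livers (black line), with 1 knockout (red) or wild type (blue) liver left out, and in replicates 1 and 2 (down triangle) or 3 and 4 (up triangle) alone. Igfals and Igfbp2 stay in narrow bands on either side of 0, while Igf1 runs from 0.17 to -1.38.

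Set side by side, the median difference was 0.04 for the 4 fetal genes and -0.39 for the 5 axis genes, beside 0.01 for all genes. The contrast of these medians was 0.43. Without Igfbp2, which growth hormone lowers, the axis median was -0.41. The axis median covers 3 genes with lower and 2 with higher means, so it does not describe a shared direction. Averaged per liver, the fetal genes read 10.45 ± 0.15 (SD, n = 4) in the knockout and 10.36 ± 0.20 in the wild type. The axis genes read 8.47 ± 0.39 in knockout and 8.59 ± 0.10 in wild type livers. Spread was thus wider among knockout livers for the axis, from 7.98 in knockout 3 to 8.86 in knockout 1. The fetal minus axis value ran from 1.42 to 2.45 in knockout and from 1.40 to 2.01 in wild type livers, so the groups overlapped. Left out singly, knockout 3 took the axis median to -0.17 and the contrast to 0.21, and wild type 2 took them to -0.25 and 0.24. The contrast turned to -0.16 in replicates 1 and 2 alone and to -0.71 with the erythroid mean as a covariate.

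**Figure D4:**
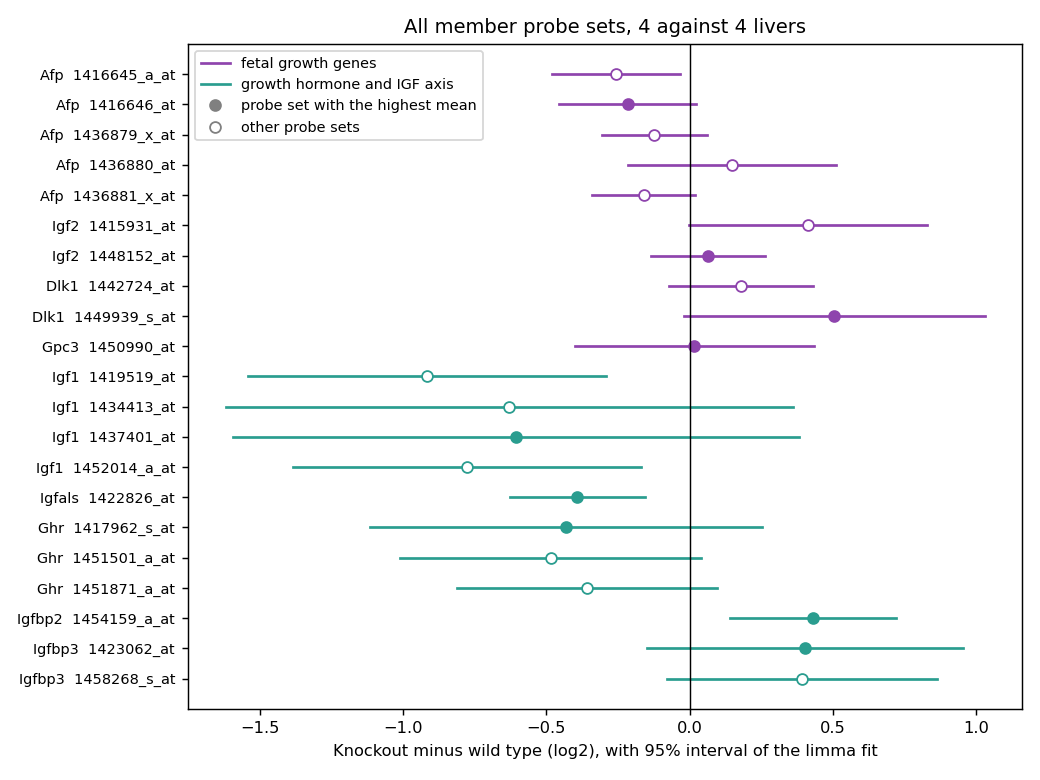
Difference of each of the 21 member probe sets, knockout minus wild type (log2), with the 95% interval of the limma fit, for fetal growth genes (purple) and axis genes (green). The 2 widest intervals are of Igf1, and 5 intervals leave out 0, those of 1 Afp, 2 Igf1, the Igfals and the Igfbp2 probe sets.

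Genes around the members were taken from textbook lists. Of 12 measured genes of growth hormone signalling, the member Ghr among them, 0 passed the threshold in limma and 2 had an unadjusted p under 0.05. Of all genes 1.15% passed and 14.6% had such a p. The lowest p belonged to Socs3, an inhibitor of cytokine signalling, at -0.33 ± 0.12 (SE) with an adjusted p of 0.286. The other was Socs2, a growth hormone target that inhibits its receptor, at 0.49 ± 0.19 with an adjusted p of 0.343. The kinase Jak2 and the factor Stat5b, the steps between receptor and target genes, differed by 0.11 ± 0.16 each, and Stat5a by -0.10 ± 0.10. These 3 and Socs2 were named after their values were seen. The median of the list was -0.02.

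Of 17 measured IGF receptors, binding proteins and proteases, 0 passed the threshold in limma and 2 had an unadjusted p under 0.05, both higher. Insr, the insulin receptor, had the lowest p. It read 7.73 to 7.99 in knockout and 7.05 to 7.72 in wild type livers, without overlap. It differed by 0.60 ± 0.15 (SE), with an adjusted p of 0.110 in limma, and passed without wild type 2 and with array weights, the only gene of the 6 pathway lists to pass under any alternative run. Igfbp1, a binding protein known to rise in fasting, was chosen after its values were seen. It differed by 0.38 ± 0.13, without overlap, with an adjusted p of 0.270 in limma. The receptors Igf1r and Igf2r, named in the same way, differed by -0.06 ± 0.20 and -0.08 ± 0.27.

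In the list of imprinted genes other than the members, 0 of 18 measured passed in limma and 2 had an unadjusted p under 0.05. Peg3, a zinc finger gene expressed from the paternal allele, had the lowest p. It read 10.02 to 10.34 in knockout and 9.02 to 9.83 in wild type livers, a difference of 0.63 ± 0.17 (SE) with an adjusted p of 0.138. Mest, another paternally expressed gene named after its values were seen, pointed the other way, at -0.95 ± 0.26 with an adjusted p of 0.146 in limma. The imprinted genes thus had no common sign, with 10 means higher and 8 lower.

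Of 14 measured regulators of the fetal liver programme 0 passed in limma and 3 had an unadjusted p under 0.05. Zbtb20, a repressor of Afp after birth, had the lowest p. It differed by 0.80 ± 0.22 (SE), with an adjusted p of 0.154 and overlapping groups. Zhx2, another known repressor of Afp, differed by -0.08 ± 0.17 and was named after its values were seen. In the albumin family 0 of 2 measured relatives of Afp passed in limma and 1 had an unadjusted p under 0.05. That one was Afm, which encodes afamin, at -0.70 ± 0.22 with an adjusted p of 0.217, while Alb, named after its values were seen, differed by -0.05 ± 0.08. Of 20 measured hepatocyte genes that rise around and after birth 0 passed in limma and 4 had an unadjusted p under 0.05. Cyp7a1, whose enzyme starts the making of bile acids, had the lowest p, at -0.65 ± 0.19 with an adjusted p of 0.189. The medians of these 3 lists were 0.04, -0.37 and 0.06.

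**Figure D5:**
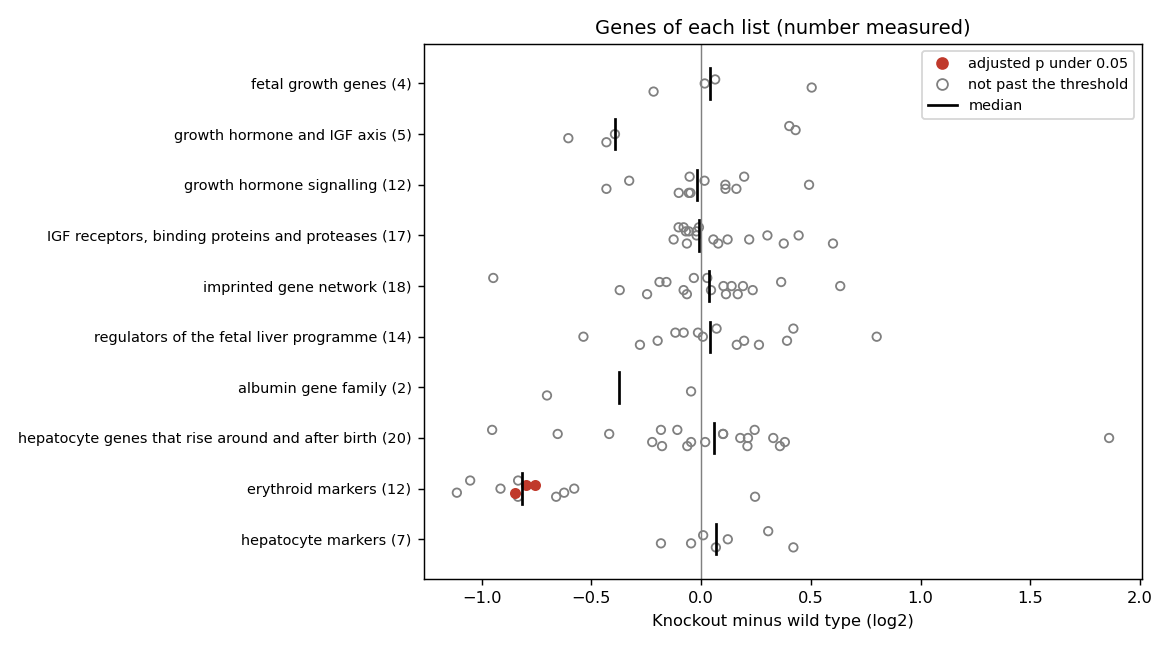
Differences (log2, knockout minus wild type) of the measured genes of each list, 1 point a gene, with the median as a black bar and filled red points past an adjusted p of 0.05. The 3 filled points are erythroid markers, and no gene of the member or pathway lists is filled.

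Markers of other cells in the liver were set beside these values, on a scale that has no 0. Of the 12 erythroid markers 11 had lower and 1 had a higher mean in the knockout. The mean of 7 hepatocyte markers lay between 12.66 and 12.72 in knockout and between 12.57 and 12.63 in wild type livers. Of these markers 5 had higher and 2 had lower means in the knockout, with a median difference of 0.07. The mean of 10 stellate cell and fibroblast markers ranged from 5.87 to 6.82 in knockout and from 6.36 to 6.60 in wild type livers, and that of 9 endothelial markers from 5.74 to 6.55 and from 5.96 to 6.36. Macrophage markers, 9 genes, ranged from 7.15 to 7.92 and from 6.87 to 7.62. Megakaryocyte markers, 5 genes, ranged from 7.67 to 7.82 and from 7.55 to 7.95, and bile duct markers, 5 genes, from 3.92 to 4.63 and from 3.97 to 4.06. No marker outside the erythroid list passed the threshold in limma. At an unadjusted p under 0.05 there were 2 of 7 hepatocyte, 1 of 9 macrophage and 1 of 5 bile duct markers, all higher. There were 0 stellate, endothelial or megakaryocyte markers at that p. Of all genes 14.6% had such a p. Among knockout livers the stellate, endothelial and macrophage means were all highest in knockout 2 and all lowest in knockout 3. These are the livers at the top and bottom of the knockout range of Igfbp3. Over all 8 livers the macrophage mean was lowest in wild type 4, at 6.87. Wild type livers did not follow this order. Wild type 1, highest of its group in Igfbp3 at 7.81, had the lowest stellate mean of its group, 6.36. Its endothelial mean, 6.18, and its macrophage mean, 7.32, were below only those of wild type 2 in that group. Wild type 2, with the highest stellate, endothelial and macrophage means of its group, read 6.94 in Igfbp3. The part of these cells in the values of Igfbp3 was not tested.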

How the data were processed

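The deposited values are on the log2 scale, and the authors computed them with RMA according to the submitters' processing notes, which give no version or settings. The scale was read from the values, 1.11 to 13.7. RMA brings arrays to a shared distribution, so a change in total mRNA per liver cannot be seen. Arrays give no read depth, and 4 against 4 livers limit the precision. The 64 array controls were left out. The platform annotation pairs 34945 probe sets with 1 gene, 932 with several and 9160 with none listed, and symbols were updated through Entrez identifiers for 34741 with the gene table of GRCm38.p6. The probe set with the highest mean stood for its gene.

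Knockout minus wild type was fitted with lmFit and eBayes of limma 3.58.1 (R 4.3.3), two-sided and without covariates, over 45037 probe sets, with Benjamini-Hochberg adjustment over all of them. The fit was tested on simulated data of this comparison, also 45037 probe sets. There it recovered 85.0% of changes of 1 log2 unit, and 8.04% of its calls were false. Recovery in the member probe sets alone was not tested. In the measured livers the 95% interval reached 1 log2 unit in 7 of the 21 member probe sets. Members and lists were chosen with earlier results of these data known. Genes of the lists were named by the rule of up to 4 past the threshold, or the lowest p where none passed, and exceptions are said to be. Promoter windows came from RefSeq, and 9 of the 10 members had one. Protein sequences were not used here. Alternatives changed normalization, filter, variance estimate, blocks, covariates and livers.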

Additional observations from a re-analysis of the deposited data

Results flagged for a closer look

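Of 46 groups of 4 livers examined, 2 for each probe set of the members and of Hsd17b4, 3 held a liver far from the others. In the brightest Igfbp3 probe set wild type 1 read 7.81, while the other 3 wild type livers lay between 6.86 and 6.94. In the second Hsd17b4 probe set knockout 1 read 3.06, while the other 3 knockout livers lay between 1.73 and 1.88, and wild type 3 read 8.78, while the other 3 wild type livers lay between 7.80 and 7.96. Chance gives about 1 such group in 20.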

How the results depend on the processing

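Of 21 member probe sets, 0 passed in limma with all livers and under each alternative except replicates 3 and 4 alone, where 3 passed, and single livers left out, where 0 to 1 passed. The count over all probe sets was 343, and it was between 9 and 489 with 1 liver left out (wild type 1 gave 161, wild type 2 gave 489, wild type 3 gave 13, wild type 4 gave 9, knockout 1 gave 177, knockout 2 gave 277, knockout 3 gave 38, knockout 4 gave 13), 914 with array weights, 527 with the Y-linked mean, 15 with a replicate block, 4 in replicates 1 and 2 alone and 0 with the erythroid mean (2080 at an unadjusted p under 0.05). With the erythroid mean in the fit, the fetal median was -0.14, the axis median 0.57 and their contrast -0.71. In replicates 1 and 2 alone the axis median was 0.17 and the contrast -0.16. In the brightest probe set of each gene, signs turned with the erythroid mean in Dlk1 (-0.20), Gpc3 (-0.19), Igf1 (0.57) and Ghr (0.42), and in replicates 1 and 2 alone in Gpc3 (-0.14), Igf1 (0.17) and Ghr (0.053). Other probe sets kept theirs, with the erythroid mean 1 of Dlk1 (0.30) and 1 of Igf1 (-0.19), and in replicates 1 and 2 alone 2 of Igf1 (-0.32 and -0.23) and 2 of Ghr (-0.05 and -0.03). With single livers left out Gpc3 ran from -0.10 to 0.17, the fetal median from -0.01 to 0.13, the axis median from -0.43 to -0.17 and the contrast from 0.21 to 0.56. The cause of these shifts was not tested. Deviations of same-numbered livers 1 to 4 correlated at -0.0039, 0.069, 0.17 and 0.26, and as the first 2 lay near 0 the numbers were not taken to pair livers. Used anyway, the replicate block changed no call on a member. The other alternatives kept the sign of every member's brightest probe set and its side of the threshold, apart from Igf1 in replicates 3 and 4 alone, at -1.38. Dim probe sets near the array medians, among them 1 of Dlk1 and 2 of Afp, may understate a difference. Probe sets near the top of the measured values may do so too, among them the brightest of Afp, Igf2, Igfbp2 and Alb. The probe set shared by H19 and Mir675 also reads near the top. Whether differences are compressed in these bright probe sets was not tested.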
